A study of Oryza sativa with 18 samples.

Results

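Watered flag leaves of the rice hybrid Hanyou73 were compared with watered flag leaves of Huhan7B, a parental line of that hybrid, in 6 of the 18 libraries of the study. The 6 libraries are the ones labelled Hanyou73 with the treatment water and Huhan7B with the treatment water, 3 of each genotype. They were picked by these labels, but the comparison itself was chosen with earlier results of these data known. Leaves were taken at grain filling from field plants of the same stage and hour of harvest, per the labels, and the watered plots were the controls of a drought arm in which irrigation was withheld from early grain filling. Hanhui3, the other parental line, and the droughted libraries of Hanyou73 and Huhan7B give levels and differences set beside the watered ones. All 18 libraries also entered the gene filter and the shared estimate of spread behind each standard error and p-value. Each library is a pool of flag leaves of several plants from a shared plot, and p-values therefore measure how much such pools vary. What belongs to the genotype and what belongs to its plot cannot be told apart.

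The flag leaf is the last leaf below the panicle and supplies much of the sugar that fills the grain. Its chloroplasts hold antenna proteins that bind chlorophyll and pass light energy to the photosystems, and Rubisco, which fixes carbon dioxide in the Calvin cycle. Late in grain filling a rice leaf dismantles this machinery: chlorophyll is degraded by a chain of enzymes, and the nitrogen and sugars set free are loaded into the phloem.

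Values are FPKM, fragment counts scaled by transcript length and library size, so that levels can be set side by side between genes. Read depth, worked out from low values, was about 14.6 to 15.3 M fragments for Hanyou73 and 15.4 to 16.6 M for Huhan7B. FPKM summed to between 958893 and 991221 in Hanyou73 and between 1044202 and 1056201 in Huhan7B, and 20074 to 20110 genes against 19088 to 19136 reached an FPKM of 1. Across genes, which are not independent replicates, Pearson's r was 0.985 to 0.989 between libraries of a genotype and 0.900 to 0.905 between genotypes. The parental labels were checked through genes that were on in all 6 libraries of a parent, watered and droughted, and off in all 6 of the other. Of 103 such genes of Hanhui3, 94 were detected at an FPKM of 0.1 or more in all 3 watered hybrid libraries and 3 were below it in all 3. For Huhan7B these numbers were 96 and 22 of 120 genes. Whether the Huhan7B plants sequenced are the same stock as the hybrid's own parent cannot be told from these data. The differences below are therefore between the plants labelled Hanyou73 and Huhan7B. Transcripts that define a leaf, those of Rubisco, Rubisco activase and antenna proteins, were present in both groups.

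Of 22590 genes tested, 14682 (65.0%) were called different at an adjusted p under 0.05 by limma's moderated test: 8382 (37.1%) higher in the hybrid and 6300 (27.9%) lower. At a difference of at least 2-fold on the log2(FPKM + 1) scale, 2635 genes (11.7%) were higher and 1371 (6.07%) lower. The median gene differed by 0.059 on the log2 scale. These shares are the background against which the gene groups below are read. All differences are Hanyou73 minus Huhan7B on this log2 scale, with the moderated standard error of the fit, and adjusted p-values are Benjamini-Hochberg values over all 22590 genes. A pseudocount of 1 understates the change of genes with low values. With median-ratio scaling 7758 genes were called higher and 7020 lower, and with equal sums (TPM) 9683 and 5114. The size of the excess of higher genes thus depended on the scaling.

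**Figure D1:**
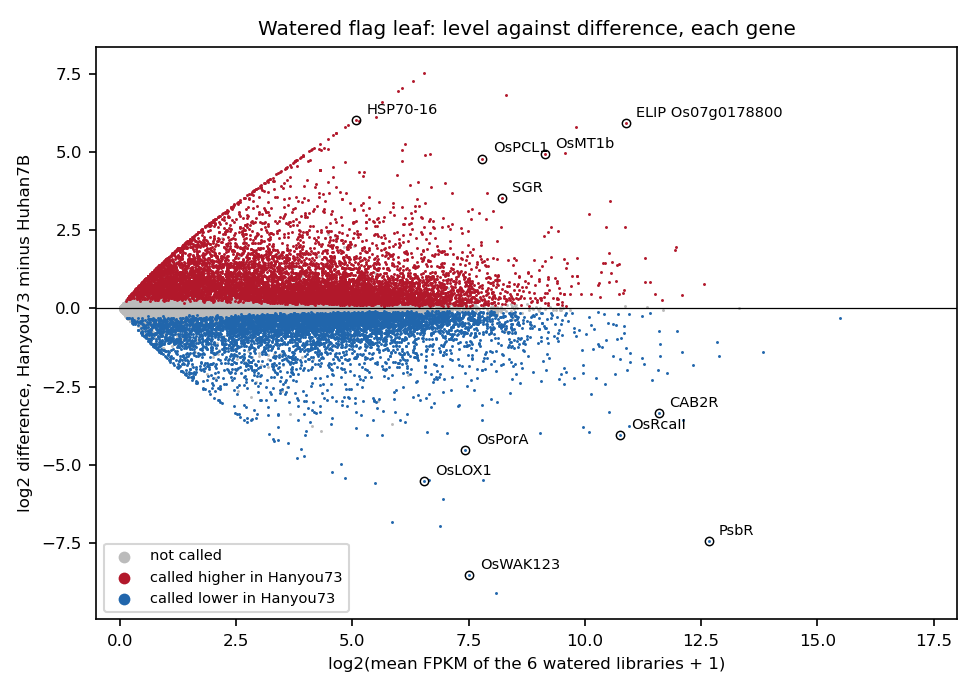
Each point is a gene. The x axis is the log2 of its mean FPKM over the 6 watered libraries plus 1 and the y axis is its log2 difference, Hanyou73 minus Huhan7B. Genes called higher (8382) are red, genes called lower (6300) are blue and the others grey, and circles mark genes named in the text. PsbR lies at -7.45 and the early light-inducible protein gene Os07g0178800 at 5.93.

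Transcripts of the light-harvesting antenna were lower in the hybrid almost throughout. Of 21 genes listed for chlorophyll-binding antenna proteins, 17 passed the filter; 15 of them were called lower and 2 higher, with a median difference of -1.48. The summed FPKM of the group was 14334 to 15353 in the hybrid libraries and 49313 to 50268 in those of Huhan7B. CAB2R (Os01g0600900), an antenna protein of photosystem II, stood at 560.4, 541 and 554 FPKM in the hybrid and at 5677, 5478 and 5656 FPKM in Huhan7B (log2 difference -3.34 ± 0.068, adjusted p = 8.18e-16). The minor antenna protein CP26 (ASCAB9-A, Os11g0242800) stood at 279, 265 and 254 FPKM against 2667, 2647 and 2626 FPKM (log2 difference -3.31 ± 0.065, adjusted p = 5.84e-16). CP29 (Os07g0558400) stood at 956, 899 and 973 against 4632, 4542 and 4725 FPKM (log2 difference -2.30 ± 0.038, adjusted p = 8.01e-17). In none of the 3 did a hybrid library reach the lowest Huhan7B library. These 3 were picked for the largest differences of the list. A lack of overlap in genes picked by their difference, here and below, is no further support. CAB1R (Os09g0346500), the most abundant antenna transcript of both genotypes, differed less, with 4758 ± 212 against 10021 ± 195 FPKM (log2 difference -1.08 ± 0.059, adjusted p = 1.85e-10). The 2 members called higher, CabE (Os09g0296800) and Lhca6 (Os09g0439500), were named after their values were seen and had low levels, 101 against 73.5 FPKM and 53.5 against 41.0 FPKM. In watered Hanhui3 CAB2R stood at 14459 ± 1527 FPKM and CP26 at 4428 ± 492 FPKM, above both genotypes compared here. Antenna genes exist in near-identical copies between which reads may have been split, so the values of a single copy are less certain than the sum. As in any bulk sample, fewer cells of a type and less RNA per cell cannot be told apart.

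The photosystem and electron transport genes were split by where they are encoded. Of the 42 tested members with a nuclear locus, 22 were called lower and 11 higher, with a median of -0.83. By at least 2-fold, 17 of these members were lower and 3 higher. Of the 11 tested members of the organelle annotation, 1 was lower and 4 were higher, with a median of 0.31. Organelle transcripts carry few poly(A) tails and were measured here in poly(A)-selected RNA, so their values are less certain. The largest difference in this list was that of PsbR (Os07g0147500), a 10 kDa subunit at the oxygen-evolving side of photosystem II. It stood at 68.78, 74.03 and 75.23 FPKM in the hybrid libraries and at 12844, 12933 and 12838 FPKM in those of Huhan7B (log2 difference -7.45 ± 0.062, adjusted p = 2.72e-20), and at 13697 ± 1578 FPKM in watered Hanhui3. The hybrid level of this gene was thus under that of both parental lines. A second gene of the same product, OsPsbR3 (Os08g0200300), was lower by less, at 3853 ± 42.5 against 11154 ± 371 FPKM (log2 difference -1.53 ± 0.052, adjusted p = 5.29e-13). Whether reads were split between this gene and PsbR was not tested. At photosystem I, the subunit gene PsaK (Os07g0148900) stood at 124, 131 and 137 FPKM against 2101, 1991 and 2050.3 FPKM (log2 difference -3.96 ± 0.040, adjusted p = 2.33e-19). PsaN (Os12g0189400) stood at 11.1 ± 2.28 against 183 ± 9.67 FPKM (log2 difference -3.95 ± 0.11, adjusted p = 4.65e-14). PsaL (Os12g0420400) stood at 2296 ± 231 against 7979.9 ± 907 FPKM (log2 difference -1.80 ± 0.12, adjusted p = 2.59e-09). The libraries of the 2 genotypes did not overlap for any of these genes. LIR1 (Os01g0102900), a light-regulated chloroplast protein, was lower as well, at 7949.8, 7899 and 8482 FPKM against 20768, 20857 and 21476 FPKM (log2 difference -1.38 ± 0.066, adjusted p = 3.55e-11).

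**Figure D2:**
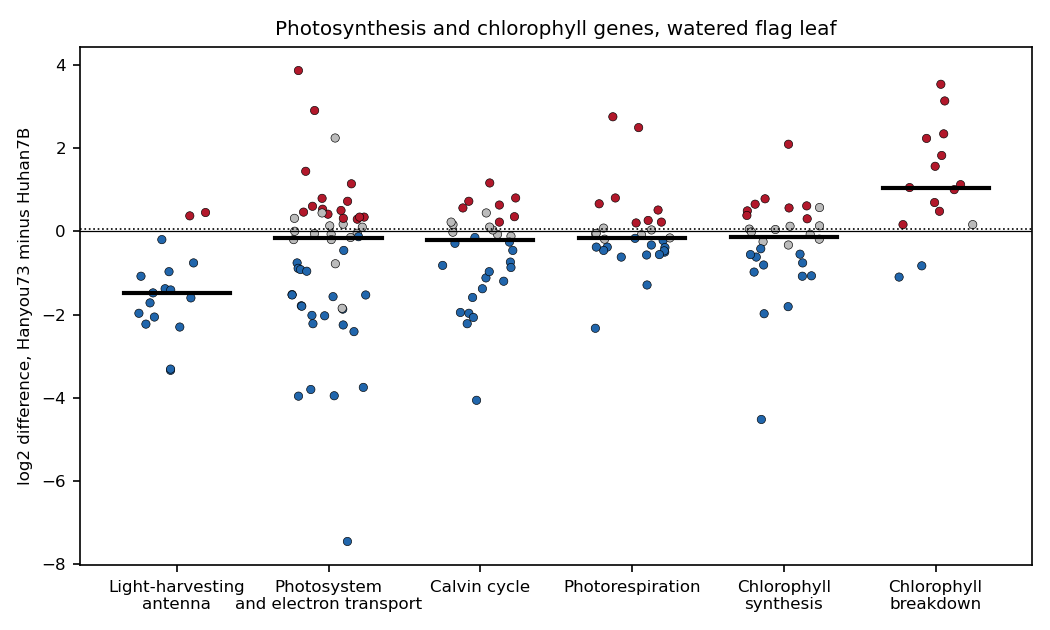
Each point is a tested gene of 1 of 6 lists, red where called higher in Hanyou73, blue where called lower and grey where not called, and the y axis is the log2 difference, Hanyou73 minus Huhan7B, in watered leaves. Black bars are list medians and the dotted line is the median of all genes tested; the antenna median lies at -1.48 and that of chlorophyll breakdown at 1.05.

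In the Calvin cycle 17 of 32 tested members were called lower and 7 higher, with a median of -0.21, and the summed FPKM was 6652 to 6857 against 15249.7 to 15541. The largest change was in OsRcaII (Os11g0707000), a Rubisco activase, the chaperone that frees Rubisco of inhibiting sugars, at 198, 200 and 187 FPKM in the hybrid and 3216, 3393 and 3226 FPKM in Huhan7B (log2 difference -4.06 ± 0.050, adjusted p = 3.75e-18). Rubisco small subunit genes were lower too: RbcS3 (Os12g0291100) stood at 1989 ± 58.6 against 4311 ± 32.3 FPKM (log2 difference -1.12 ± 0.036, adjusted p = 2.61e-13). The copy RBCS (Os12g0274700) stood at 383 ± 20.03 against 1612 ± 39.8 FPKM (log2 difference -2.07 ± 0.035, adjusted p = 1.01e-16). These copies are near-identical in sequence, and reads may have been split between them. Photorespiration recycles the product of Rubisco's reaction with oxygen, and of its 29 tested members 14 were called lower and 8 higher, with a median of -0.17. Its mitochondrial serine hydroxymethyltransferase OsSHM1 (Os03g0738400) stood at 176 ± 4.51 against 887 ± 9.93 FPKM (log2 difference -2.33 ± 0.031, adjusted p = 8.29e-18). The largest upward change of the list was in a gene of HPR3 product (Os07g0597500). It stood at 6.88, 5.01 and 5.44 FPKM in the hybrid and was listed at 0 in all 3 Huhan7B libraries (adjusted p = 2.43e-10).

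Chlorophyll genes changed on both sides of the pathway. Of 30 tested genes of chlorophyll synthesis, 12 were called lower and 8 higher, with a median of -0.13. OsPorA (Os04g0678700), a protochlorophyllide reductase of the light-dependent step, stood at 14.17, 13.32 and 12.76 FPKM in the hybrid and 320.1, 332 and 334 FPKM in Huhan7B (log2 difference -4.52 ± 0.063, adjusted p = 1.11e-17). CAO (Os10g0567400), which makes chlorophyll b, stood at 88.2 ± 2.12 against 351 ± 6.55 FPKM (log2 difference -1.98 ± 0.032, adjusted p = 5.83e-17). A protoporphyrinogen oxidase gene (Os01g0286550) had the largest upward change of this list, at 7.90 ± 1.26 against 1.24 ± 1.10 FPKM (log2 difference 2.09 ± 0.30, adjusted p = 1.48e-05). Of 15 tested genes of chlorophyll breakdown, 12 were called higher and 2 lower, with a median of 1.05 and a summed FPKM of 3122 to 3148 against 1041 to 1091. SGR (Os09g0532000), the STAY-GREEN protein that removes magnesium from chlorophyll a, stood at 552, 550.2 and 532 FPKM in the hybrid and 46.55, 44.52 and 47.99 FPKM in Huhan7B (log2 difference 3.53 ± 0.14, adjusted p = 2.93e-12), with 3.02 ± 1.01 FPKM in watered Hanhui3. A pheophytinase gene (Os02g0705100), for the enzyme that cuts off the phytol tail, stood at 478, 453 and 472 FPKM against 51.65, 51.26 and 54.34 FPKM (log2 difference 3.13 ± 0.061, adjusted p = 5.32e-16). Another (Os07g0575800) stood at 73.4 ± 1.91 against 13.7 ± 0.661 FPKM (log2 difference 2.34 ± 0.11, adjusted p = 2.05e-11). Other steps, named after their values were seen, were also higher: the chlorophyll b reductase NYC1 at 717 against 243 FPKM (log2 difference 1.56), the pheophorbide a oxygenase OsPAO at 209.7 against 95.8 FPKM (log2 difference 1.12) and the red chlorophyll catabolite reductase OsRCCR1 at 286 against 80.4 FPKM (log2 difference 1.82). A member of each of these steps was thus called higher. The 2 members called lower, a STAY-GREEN-like gene (Os04g0692600) and a gene annotated as a pheophytinase (Os09g0532700), stood at 25.1 against 54.7 FPKM and 16.2 against 29.4 FPKM.

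Early light-inducible proteins (ELIPs) are relatives of the antenna proteins that accumulate under strong light and bind free chlorophyll. The ELIP gene Os07g0178800 stood at 3751, 3468 and 3890.3 FPKM in the hybrid and 62.92, 54.08 and 62.71 FPKM in Huhan7B (log2 difference 5.93 ± 0.080, adjusted p = 8.29e-18). A second ELIP gene (Os01g0246400) stood at 1775, 1685 and 1809 FPKM against 32.30, 28.17 and 30.67 FPKM (log2 difference 5.81 ± 0.093, adjusted p = 5.57e-17). Os07g0178700, also an ELIP gene, stood at 181 ± 5.20 against 5.05 ± 0.454 FPKM (log2 difference 4.91 ± 0.16, adjusted p = 4.14e-13). All 3 were near the Huhan7B level in watered Hanhui3, where the first stood at 52.1 ± 3.40 FPKM and the second at 21.1 ± 0.802 FPKM. PSBS1 (Os01g0869800), the photosystem II protein that turns on heat dissipation of excess light, stood at 1140.3 ± 17.9 against 420.3 ± 8.55 FPKM (log2 difference 1.44 ± 0.060, adjusted p = 6.89e-12). OsDjC45 (Os04g0675400), a chloroplast J-domain chaperone, stood at 1516, 1467 and 1468 FPKM against 45.70, 47.63 and 45.57 FPKM (log2 difference 4.97 ± 0.067, adjusted p = 8.35e-18). For each of these genes the lowest hybrid library lay above the highest Huhan7B library.

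**Figure D3:**
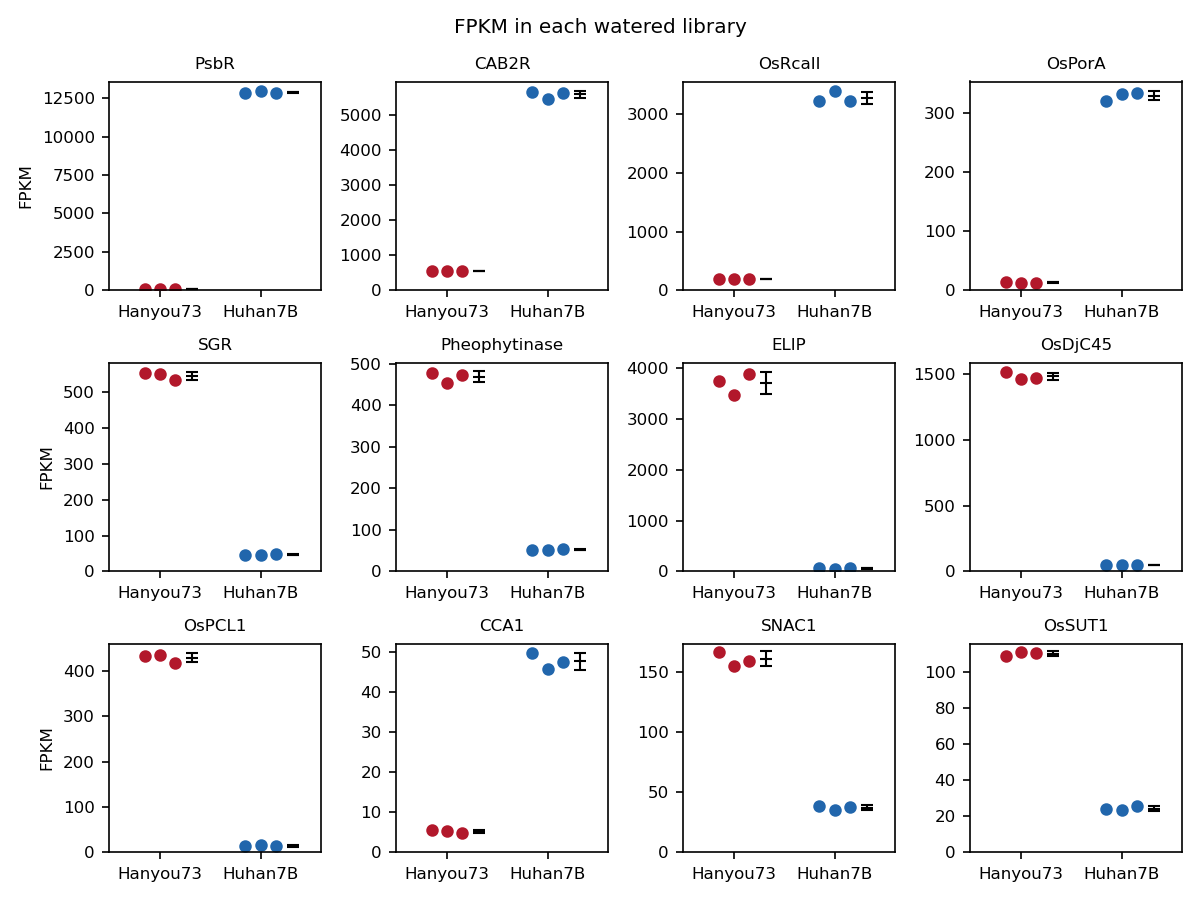
FPKM of 12 genes in each of the 6 watered libraries, with 1 panel per gene and axes that start at 0. Red points are the 3 Hanyou73 libraries and blue points the 3 Huhan7B libraries, and the bar beside each group is its mean with the SD. PsbR, CAB2R, OsRcaII, OsPorA and CCA1 are lower in the hybrid and the other 7 genes higher, and no gene shown has overlapping groups.

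Genes that move and store sugar were higher in part. Sucrose synthesis and transport had 13 of 25 tested members called higher and 6 lower, with a median of 0.48. OsSUT1 (Os03g0170900), a sucrose transporter, stood at 109, 111 and 110.4 FPKM in the hybrid and 24.12, 23.26 and 25.60 FPKM in Huhan7B (log2 difference 2.13 ± 0.041, adjusted p = 4.68e-16). The SWEET sugar transporter OsSWEET4 (Os02g0301100) stood at 105 ± 6.38 against 12.4 ± 0.270 FPKM (log2 difference 2.98 ± 0.061, adjusted p = 8.61e-16). Its relative SWEET13 (Os12g0476200) stood at 13.0 ± 1.49 against 0.437 ± 0.0252 FPKM (log2 difference 3.28 ± 0.092, adjusted p = 4.58e-14). Starch breakdown had 15 of 28 higher and 5 lower, with a median of 0.23; the beta-amylase gene OsSTA246 (Os10g0465700) stood at 67.8 ± 4.13 against 9.07 ± 1.13 FPKM (log2 difference 2.78 ± 0.11, adjusted p = 2.82e-12). Starch synthesis had 10 of 23 in each direction, and in it the isoamylase gene OsPHS8 (Os08g0520900) stood at 14.0 ± 0.821 against 1.64 ± 0.227 FPKM (log2 difference 2.51 ± 0.11, adjusted p = 1.34e-11). A granule-bound starch synthase gene (Os06g0133100) was lower, at 0.610 ± 0.115 against 4.79 ± 0.115 FPKM (log2 difference -1.85 ± 0.22, adjusted p = 1.58e-06). In trehalose metabolism 7 of 14 were higher and 4 lower, with OsTPS4 (Os03g0224300), a trehalose-phosphate synthase, at 102 ± 1.48 against 34.3 ± 0.809 FPKM (log2 difference 1.55 ± 0.072, adjusted p = 2.40e-11). Raffinose and galactinol genes split into 6 higher and 3 lower of 11, sucrose cleavage into 8 and 4 of 19, and TCA cycle genes into 6 and 7 of 25. The 7 lower TCA cycle genes were 3 when the first Hanyou73 library was left out and 4 without the first Huhan7B library.

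Clock genes changed in both directions, with 8 of 18 tested members called higher and 8 lower and a median of -0.015. CCA1 (Os08g0157600), a morning-phased MYB factor of the clock, stood at 5.56, 5.39 and 4.87 FPKM in the hybrid and 49.80, 45.59 and 47.32 FPKM in Huhan7B (log2 difference -2.95 ± 0.12, adjusted p = 3.72e-12). The gene with the symbol LHY (Os04g0583900, product REVEILLE 2) went the other way, at 11.94, 11.32 and 11.63 FPKM against 0.04, 0.14 and 0.18 FPKM (log2 difference 3.50 ± 0.091, adjusted p = 1.83e-14). OsPCL1 (Os01g0971800), related to the evening factor LUX of Arabidopsis, stood at 433, 436 and 417 FPKM against 13.59, 16.51 and 13.68 FPKM (log2 difference 4.79 ± 0.086, adjusted p = 1.96e-16). For all 3 genes watered Hanhui3 was closer to Huhan7B than to the hybrid, with 55.5 ± 0.964, 0.233 ± 0.0404 and 4.02 ± 0.708 FPKM. The labels give the same hour of harvest for all groups, and no hour is stated. Flowering regulators had 21 of 43 tested members higher and 13 lower, with a median of 0.22, and their 3 largest changes were in CONSTANS-like zinc finger genes. OsBBX19 (Os06g0298200) stood at 44.35, 44.97 and 43.65 FPKM against 1.20, 1.80 and 1.36 FPKM (log2 difference 4.21 ± 0.10, adjusted p = 5.56e-15). DTH2 (Os02g0724000) stood at 33.4 ± 1.25 against 1.33 ± 0.277 FPKM (log2 difference 3.89 ± 0.10, adjusted p = 1.49e-14). OsCOL13 (Os07g0667300) stood at 12.4 ± 1.20 against 0.0867 ± 0.0321 FPKM (log2 difference 3.62 ± 0.15, adjusted p = 4.89e-12). Hd1 (SE1, Os06g0275000), the rice CONSTANS, was low in both genotypes, at 3.25, 4.07 and 4.15 FPKM against 0.49, 0 and 0 FPKM (log2 difference 2.07 ± 0.40, adjusted p = 2.86e-04). The florigen gene Hd3a (Os06g0157700) was higher, at 20.26, 19.00 and 14.86 FPKM against 11.26, 15.87 and 11.11 FPKM (log2 difference 0.48 ± 0.12, adjusted p = 0.00243). The Hd3a libraries of the 2 genotypes overlapped, although the test called the gene. Ehd1 (EF1, Os10g0463400), which acts upstream of Hd3a, stood at 0.157 ± 0.115 against 0.750 ± 0.165 FPKM (log2 difference -0.60 ± 0.16, adjusted p = 0.00449), and Ghd7 did not pass the filter.

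NAC and WRKY transcription factors were more often higher than lower in the hybrid. Of 59 tested NAC factors, a family with regulators of drought response and senescence, 40 were called higher and 6 lower, with a median of 0.56. SNAC1 (Os03g0815100), a stress-responsive NAC factor of guard cells, stood at 167, 155 and 159.6 FPKM in the hybrid and 38.37, 35.28 and 38.17 FPKM in Huhan7B (log2 difference 2.08 ± 0.072, adjusted p = 6.51e-13). ONAC039 (Os03g0327100) stood at 207 ± 6.40 against 33.7 ± 1.50 FPKM (log2 difference 2.59 ± 0.066, adjusted p = 1.40e-14). OMTN6 (Os08g0200600) was lower at 6.36 ± 0.401 against 58.5 ± 3.06 FPKM (log2 difference -3.02 ± 0.069, adjusted p = 3.67e-15). WRKY factors had 35 of 65 higher and 10 lower, with a median of 0.46; WRKY45 (Os05g0322900), a regulator of salicylic acid signalling in rice, stood at 126, 117 and 126 FPKM against 16.52, 14.45 and 16.52 FPKM (log2 difference 2.88 ± 0.073, adjusted p = 1.15e-14). AP2/ERF factors had 22 of 55 higher and 19 lower, shares close to those of all genes. Among them OsLG3 (Os03g0183000) was higher at 31.1 ± 0.768 against 2.73 ± 0.123 FPKM (log2 difference 3.11 ± 0.11, adjusted p = 6.19e-13). Sub1C (Os09g0286600) was lower at 36.6 ± 3.16 against 177 ± 2.18 FPKM (log2 difference -2.25 ± 0.11, adjusted p = 6.98e-11). The stress-responsive factor OsDREB1A (Os09g0522200) was lower, at 1.02, 1.07 and 0.55 FPKM against 17.26, 18.04 and 19.72 FPKM (log2 difference -3.37 ± 0.15, adjusted p = 1.30e-11). OsDREB1B (Os09g0522000) was lower as well, at 2.12, 3.01 and 2.85 FPKM against 20.93, 22.21 and 25.22 FPKM (log2 difference -2.70 ± 0.097, adjusted p = 1.01e-12).

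Abscisic acid signalling had 11 of 28 tested members higher and 10 lower, with a median of 0.19. The protein kinase SAPK7 (Os04g0432000), of the family that passes on the abscisic acid signal, stood at 77.92, 78.57 and 72.03 FPKM against 9.75, 10.04 and 11.54 FPKM (log2 difference 2.76 ± 0.096, adjusted p = 6.93e-13). SAPK9 (Os12g0586100) stood at 156, 162 and 162 FPKM against 25.64, 24.15 and 26.51 FPKM (log2 difference 2.60 ± 0.052, adjusted p = 7.27e-16). The receptor gene OsPYL-RCAR3 (Os02g0255500) was lower, at 16.0 ± 2.36 against 48.2 ± 0.327 FPKM (log2 difference -1.54 ± 0.099, adjusted p = 1.26e-09). The gene of the abscisic acid synthesis enzyme NCED3 (OsNCED1, Os03g0645900) stood at 2.75 ± 0.364 against 1.04 ± 0.0693 FPKM (log2 difference 0.87 ± 0.12, adjusted p = 1.48e-05). LEA proteins and dehydrins protect cells from water loss, and of 20 tested members 10 were higher and 1 lower. LEA3 (OsLEA3-1, Os05g0542500) stood at 1.16, 1.29 and 0.88 FPKM in the hybrid and 0, 0.18 and 0 FPKM in Huhan7B (log2 difference 0.99 ± 0.12, adjusted p = 3.25e-06). RAB16A (Os11g0454300) stood at 0, 0 and 0.17 FPKM and 0 in all 3 Huhan7B libraries, with no call (adjusted p = 0.658). LIP9 (Os02g0669100), a dehydrin, stood at 41.5 ± 2.23 against 14.1 ± 0.884 FPKM (log2 difference 1.50 ± 0.067, adjusted p = 1.65e-11). The abundant member OsLEA24 (Os03g0655400) was lower at 921 ± 54.8 against 1872 ± 74.5 FPKM (log2 difference -1.02 ± 0.044, adjusted p = 9.72e-12). The proline synthesis gene P5CS1 (OsP5CS, Os05g0455500) stood at 22.9 ± 1.49 against 25.2 ± 1.64 FPKM and was not called (log2 difference -0.13 ± 0.062, adjusted p = 0.0671). Median-ratio scaling, or leaving out the third library of either genotype, brought it under the threshold, with lower values in the hybrid. Among abundant stress proteins, the abscisic stress-ripening gene OsAsr2 (Os01g0963600) stood at 2499, 2417 and 2364 FPKM against 398, 399 and 389 FPKM (log2 difference 2.61 ± 0.030, adjusted p = 1.53e-18). The ricin-B-like lectin gene R40G3 (Os07g0684000) stood at 2739 ± 59.8 against 249.7 ± 13.3 FPKM (log2 difference 3.45 ± 0.036, adjusted p = 4.55e-19). A temperature-induced lipocalin gene (Os02g0612900) stood at 3193 ± 126 against 517 ± 29.4 FPKM (log2 difference 2.62 ± 0.041, adjusted p = 4.44e-17).

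Defence genes did not move as a block. Pathogenesis-related proteins, chitinases and protease inhibitors had 46 of 102 tested members higher and 23 lower, but the largest changes were downward. OsPR1b (Os01g0382000), a secreted PR1 protein, stood at 8.78, 10.59 and 9.28 FPKM in the hybrid and 121, 133 and 129.8 FPKM in Huhan7B (log2 difference -3.62 ± 0.15, adjusted p = 6.47e-12). The chymotrypsin inhibitor gene OCPI2 (Os01g0615100) stood at 0, 1.12 and 1.96 FPKM against 95.77, 87.07 and 79.03 FPKM (log2 difference -5.58 ± 0.35, adjusted p = 1.09e-09). A further inhibitor gene, Os01g0615050, stood at 6.80, 8.33 and 12.39 FPKM against 440.5, 443 and 438 FPKM (log2 difference -5.48 ± 0.20, adjusted p = 1.26e-12). Diterpenoid phytoalexins are the antimicrobial momilactones and phytocassanes of rice, and of the 33 tested genes of their synthesis 18 were lower and 4 higher, with a median of -0.49. Oscyp71Z7 (Os02g0570700), an ent-cassadiene hydroxylase, stood at 7.38, 4.95 and 5.95 FPKM against 31.96, 32.08 and 30.73 FPKM (log2 difference -2.21 ± 0.12, adjusted p = 1.88e-10). With an FPKM of at least 5 required the list had 10 of 22 members lower. Jasmonate synthesis had 16 of 27 higher and 5 lower, with a median of 0.77, and its 2 largest changes were opposed. OsLOX1 (Os02g0194700), a lipoxygenase gene, stood at 3.11, 3.14 and 2.81 FPKM against 183, 180.2 and 183 FPKM (log2 difference -5.51 ± 0.091, adjusted p = 7.28e-17). The oxophytodienoate reductase gene OsOPR1 (Os06g0216300) stood at 165, 148 and 146 FPKM against 13.39, 12.24 and 12.32 FPKM (log2 difference 3.49 ± 0.11, adjusted p = 2.69e-13). JAZ repressors of jasmonate signalling had 6 of 10 higher and 2 lower. The lower count was 1 without the first or the third Hanyou73 library or the second Huhan7B library. The higher count ranged from 4 to 6 when 1 library was left out. NLR disease resistance genes (111 of 299 higher, 94 lower) and receptor-like kinases (150 of 446 higher, 138 lower) had shares near those of all genes. Single members differed strongly, and the NLR gene Os11g0676200 stood at 0.29, 0.19 and 0.24 FPKM against 48.36, 45.39 and 42.05 FPKM (log2 difference -5.22 ± 0.12, adjusted p = 4.04e-15). The wall-associated kinase gene WAK14 (Os02g0632800) stood at 0.26, 0.35 and 0.35 FPKM against 57.38, 57.05 and 51.72 FPKM (log2 difference -5.42 ± 0.086, adjusted p = 4.68e-17). The lectin gene annotated as horcolin (Os10g0132300) stood at 2.33, 2.98 and 2.42 FPKM against 247, 237 and 240.2 FPKM (log2 difference -6.09 ± 0.11, adjusted p = 3.58e-16).

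Families that modify and detoxify small molecules were more often higher than lower. Glutathione S-transferases had 38 of 66 tested members higher and 13 lower (median 0.54), glycosyltransferases of small molecules 50 and 21 of 90 (median 0.51), cytochrome P450 genes 69 and 36 of 138 (median 0.38) and phenylpropanoid and lignin genes 47 and 16 of 86 (median 0.35). OsGSTF1 (Os01g0371200) stood at 40.31, 35.85 and 35.44 FPKM against 2.65, 0.91 and 2.86 FPKM (log2 difference 3.67 ± 0.21, adjusted p = 3.95e-10). OsCAD3 (Os10g0430200), a cinnamyl alcohol dehydrogenase, stood at 506, 498 and 508 FPKM against 86.61, 79.21 and 80.23 FPKM (log2 difference 2.61 ± 0.046, adjusted p = 1.51e-16). CYP93G2 (Os06g0102100), which acts in flavone C-glycoside synthesis in rice, stood at 26.7 ± 1.72 against 1.64 ± 0.165 FPKM (log2 difference 3.39 ± 0.083, adjusted p = 8.35e-15). Antioxidant enzymes had 16 of 28 higher and 6 lower, with a median of 0.28. The catalase genes were opposed: CATA1 (Os02g0115700) stood at 630.1, 610 and 585 FPKM against 2566, 2531 and 2653 FPKM (log2 difference -2.09 ± 0.045, adjusted p = 1.51e-15). CATC (Os03g0131200), named after its values were seen, stood at 3502 against 1929 FPKM (log2 difference 0.86, adjusted p = 8.74e-07). OsMDAR4 (Os08g0557600), a monodehydroascorbate reductase that regenerates ascorbate, stood at 274 ± 2.33 against 45.3 ± 3.97 FPKM (log2 difference 2.58 ± 0.090, adjusted p = 6.69e-13). Metallothioneins bind metal ions, and of 12 tested members 4 were higher and 4 lower. OsMT1b (Os03g0288000) stood at 1082, 1008 and 1179 FPKM against 34.54, 38.55 and 31.40 FPKM (log2 difference 4.93 ± 0.074, adjusted p = 2.67e-17). OsMT3a (Os01g0200700), the transcript with the highest FPKM in both genotypes, stood at 40557, 38624 and 44109 FPKM against 50923, 49792 and 51560.3 FPKM (log2 difference -0.31 ± 0.087, adjusted p = 0.00604), and lost its call with no filter on low values.

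The genes of protein synthesis differed by compartment. Cytosolic ribosomal proteins had 47 of 290 tested members higher and 143 lower, with a median of -0.19, so that the shifts were small: 6 members were lower by at least 2-fold. Ribosomal proteins of the chloroplast and mitochondrion had 40 of 85 higher and 14 lower, with a median of 0.30. Pentatricopeptide repeat proteins, which process organelle RNA, had 253 of 407 higher and 31 lower, with a median of 0.45, and 30 of the higher ones reached 2-fold. With an FPKM of at least 5 required, 108 of 194 of them were higher and 26 lower. The duplicate genes Os11g0103000 and Os12g0102600 led the list at 119.6 ± 4.39 against 17.5 ± 1.66 FPKM and 81.7 ± 2.63 against 10.3 ± 0.647 FPKM, and reads may have been split between them. Proteasome subunits had 36 of 66 higher and 7 lower (median 0.16), autophagy and cysteine protease genes 18 and 7 of 38 (median 0.14), the respiratory chain 22 and 16 of 72, and F-box proteins 99 and 83 of 307. A senescence-specific cysteine protease gene (SAG39 product, Os01g0613500) stood at 5.93, 5.98 and 7.49 FPKM against 0.24, 0.11 and 0.34 FPKM (log2 difference 2.60 ± 0.16, adjusted p = 7.29e-10). Another locus of the same product (Os01g0613800) was lower at 2.72 ± 0.328 against 12.4 ± 0.614 FPKM (log2 difference -1.85 ± 0.12, adjusted p = 1.70e-09). Heat shock proteins and chaperones had 52 of 135 higher and 42 lower, close to the shares of all genes.

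Transport and surface genes gave mixed differences. Aquaporins, the water channels, had 13 of 29 tested members lower and 8 higher, with a median of -0.41. The tonoplast aquaporin gene OsTIP1 (Os01g0975900) stood at 54.19, 52.36 and 54.47 FPKM against 327, 338 and 338 FPKM (log2 difference -2.62 ± 0.047, adjusted p = 1.89e-16). The plasma membrane aquaporin gene OsPIP2 (Os02g0629200) stood at 10.27, 11.06 and 8.77 FPKM against 64.53, 60.86 and 61.18 FPKM (log2 difference -2.52 ± 0.074, adjusted p = 7.88e-14). The silicon channel gene LSI6 (Os06g0228200) was higher at 42.4 ± 0.990 against 4.94 ± 0.202 FPKM (log2 difference 2.87 ± 0.070, adjusted p = 7.68e-15). Nitrogen assimilation had 13 of 39 higher and 12 lower. AMT3 (Os03g0838400), an ammonium transporter, stood at 331, 324 and 318 FPKM against 103, 107 and 116 FPKM (log2 difference 1.57 ± 0.075, adjusted p = 3.60e-11). The nitrate reductase gene OsNIA1 (Os02g0770800) stood at 6.63 ± 0.397 against 0.123 ± 0.111 FPKM (log2 difference 2.77 ± 0.096, adjusted p = 6.36e-13). The glutamate synthase gene OsGLT2 (Os05g0555600) stood at 32.4 ± 1.67 against 280.3 ± 2.57 FPKM (log2 difference -3.07 ± 0.034, adjusted p = 9.14e-19). Wax and cuticle genes had 15 of 48 higher and 14 lower, lipid-transfer proteins 13 and 16 of 40, auxin response genes 33 and 16 of 80 and calcium sensors 49 and 30 of 118. OsCML21 (Os05g0312600), a calmodulin-like gene that the list's product names do not cover, stood at 186, 196 and 208 FPKM against 5.44, 5.36 and 5.56 FPKM (log2 difference 4.93 ± 0.16, adjusted p = 2.47e-13).

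**Figure D4:**
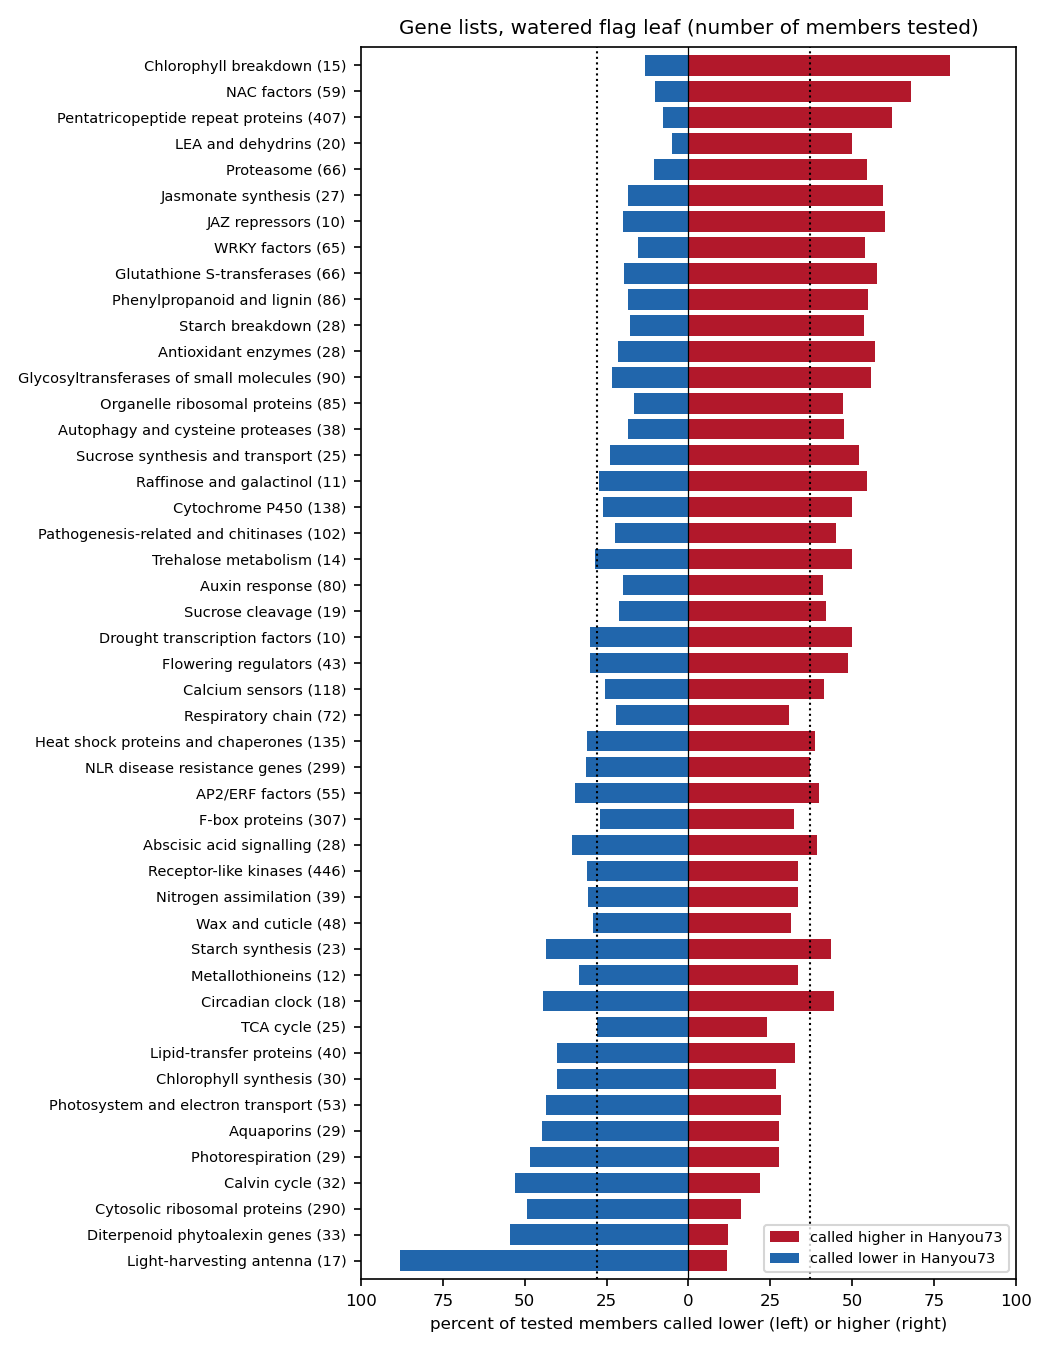
Bars give the percent of tested members called higher in Hanyou73 (red, to the right) or lower (blue, to the left) in watered leaves, for each gene list with the number of members tested. Dotted lines mark the shares over all genes tested, 37.1% higher and 27.9% lower; the antenna list stands at 88.2% lower and chlorophyll breakdown at 80.0% higher.

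Markers of other tissues were read to see what else the samples could hold. Of 114 genes of dividing cells, 65 were tested, with 37 lower and 8 higher and a median of -0.48, and their summed FPKM was 9353 to 9927 in the hybrid and 15748 to 16021 in Huhan7B. In all 6 libraries 25 of these genes were at 0. The histone H4 gene Os10g0539500 stood at 265, 251 and 286 FPKM against 1142, 1127 and 1208 FPKM (log2 difference -2.11 ± 0.064, adjusted p = 1.22e-13). Histone H4 copies are near-identical, so this value is uncertain for the single locus. Markers of the developing grain had 48 of 65 genes at 0 in all 6 libraries and a summed FPKM of 129 to 133 against 95.8 to 98.4, with 1 of 5 tested members higher. Those of pollen and flower had 17 of 34 at 0, a sum of 30.1 to 33.6 against 16.7 to 18.9 and 4 of 5 tested members higher. Those of stem and vascular tissue had 17 of 45 at 0, a sum of 112 to 114 against 77.5 to 81.0 and 8 of 22 tested members higher and 1 lower. The part of other tissues in the differences of sugar transport, ribosomal proteins and photosynthesis genes was not tested.

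A group of genes was on in a single genotype of the pair and off in the other, by transcript level. Whether the genes themselves are present in each genotype was not tested. A gene was called on where all 3 libraries had an FPKM of at least 1, and off where all 3 had less than 0.1. Of 37976 genes 255 (0.671%) were on in the hybrid and off in Huhan7B, while 73 (0.192%) were on in Huhan7B and off in the hybrid. Of the 255 genes, 150 were on in all 3 watered Hanhui3 libraries, 59 were off in all 3 and 46 lay between, and 67 had a mean of at least 10 FPKM in the hybrid. A gene annotated as heat shock 70 kDa protein 16 (Os11g0696600) had the highest level among those with a name, at 65.53, 67.93 and 63.92 FPKM in the hybrid, 0.05, 0.04 and 0 FPKM in Huhan7B and 114 ± 2.75 FPKM in watered Hanhui3. The receptor-like cytoplasmic kinase gene OsRLCK16 (Os01g0117200) stood at 26.29, 24.88 and 25.82 FPKM, was listed at 0 in all 3 Huhan7B libraries and stood at 44.7 ± 1.76 FPKM in Hanhui3. Other genes were off in the watered libraries of both parental lines: Os04g0103800, annotated as a subunit of the actin-regulating WASH complex, stood at 29.39, 31.52 and 25.58 FPKM in the hybrid and Os12g0406000, annotated as a calcium-dependent protein kinase, at 23.90, 23.10 and 17.28 FPKM, with 0 listed in all watered libraries of Huhan7B and Hanhui3. Of the 73 genes in the other direction, 51 were off in watered Hanhui3 and 10 on. OsWAK123 (Os11g0694100), a wall-associated receptor kinase gene, stood at 374, 368 and 353 FPKM in Huhan7B and was listed at 0 in all watered libraries of the hybrid and of Hanhui3. A ribosomal protein gene (uS17 product, Os07g0565000) stood at 114, 116 and 109 FPKM in Huhan7B and was listed at 0 in the hybrid and in Hanhui3. The genes named by level include the disease resistance genes Os11g0684700, on in the hybrid at 18.6 ± 0.382 FPKM, and Os11g0615900 and Os10g0136100 on in Huhan7B at 6.21 ± 0.172 and 5.63 ± 0.512 FPKM. Whether a gene listed at 0 lost its reads to another copy was not tested. No fold is given for the genes of this paragraph. In the droughted libraries 123 of the 255 genes and 25 of the 73 genes were again on in the same genotype and off in the other.

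The droughted libraries of the same genotypes gave a second, separate measurement of the genotype difference. There 12644 genes (56.0%) were called higher in the hybrid and 3610 (16.0%) lower, 77.8% of the calls being higher, and the median gene lay at 0.33. Median-ratio scaling moved this median to 0.026 and the calls to 7657 higher and 6880 lower (52.7% higher). Calls in drought are therefore to be read against the median gene. Of the 2635 genes higher by at least 2-fold in water, 1981 (75.2%, and 15.7% of the genes higher in drought) were again called higher in drought, 183 were lower and 471 were not called. Of the 1371 genes lower by at least 2-fold in water, 900 (65.6%, and 24.9% of the genes lower in drought) were again lower, 182 were higher and 289 were not called. With median-ratio scaling the same sets had 1723 and 1023 genes called again in their direction and 290 and 125 in the opposite one. Without the 2-fold limit, 6089 of the 8382 higher genes (72.6%) were again higher in drought and 766 were lower. Of the 6300 lower genes only 2113 (33.5%) were again lower, while 2257 (35.8%) were called higher. Median-ratio scaling gave 4447 and 3513 genes of these 2 sets called again, and 1589 and 960 in the opposite direction. Antenna genes were mostly lower in drought too, with 16 of 17 lower and 1 higher and a median of -2.60. Photosystem genes, nuclear and organelle members together, had 24 of 53 lower and 16 higher in drought, with a median of -0.14. In water the same undivided list had 23 lower and 15 higher, with a median of -0.15. Of the 15 chlorophyll breakdown genes 4 were higher and 6 lower in drought, with a median of -0.020 beside 0.33 for all genes. The change between treatments was called for 12 of its 15 genes in the positive direction, against 18.3% of all genes, with 44.3% negative and 62.6% in either direction. At 2-fold or more, that change was positive in 6.67% and negative in 11.5% of all genes, and 15.8% were higher and 4.85% lower in drought. SGR stood at 73.5 ± 2.77 FPKM in droughted Hanyou73 and 109 ± 5.30 FPKM in droughted Huhan7B, so that its difference was 3.53 ± 0.14 in water and -0.56 ± 0.14 in drought (adjusted p = 0.00193 in drought; difference of differences 4.09 ± 0.20, adjusted p = 1.15e-10). Median-ratio scaling put the drought difference of SGR at -0.90 (adjusted p = 4.99e-05). The median of cytosolic ribosomal proteins was -0.19 in water and 0.63 in drought, beside 0.059 and 0.33 for all genes. OsSUT1 differed by 2.15 ± 0.041 in drought, beside 2.13 ± 0.041 in water (difference of differences -0.017 ± 0.058, adjusted p = 0.816). With median-ratio scaling its drought difference was 1.81 and the difference of differences was called, at 0.27 (adjusted p = 0.00142). LEA3 and RAB16A, near 0 in water, stood at 146 ± 6.59 against 37.8 ± 6.59 FPKM (adjusted p = 1.06e-09) and at 150 ± 7.03 against 4.19 ± 0.532 FPKM (adjusted p = 6.51e-14) in drought.

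**Figure D5:**
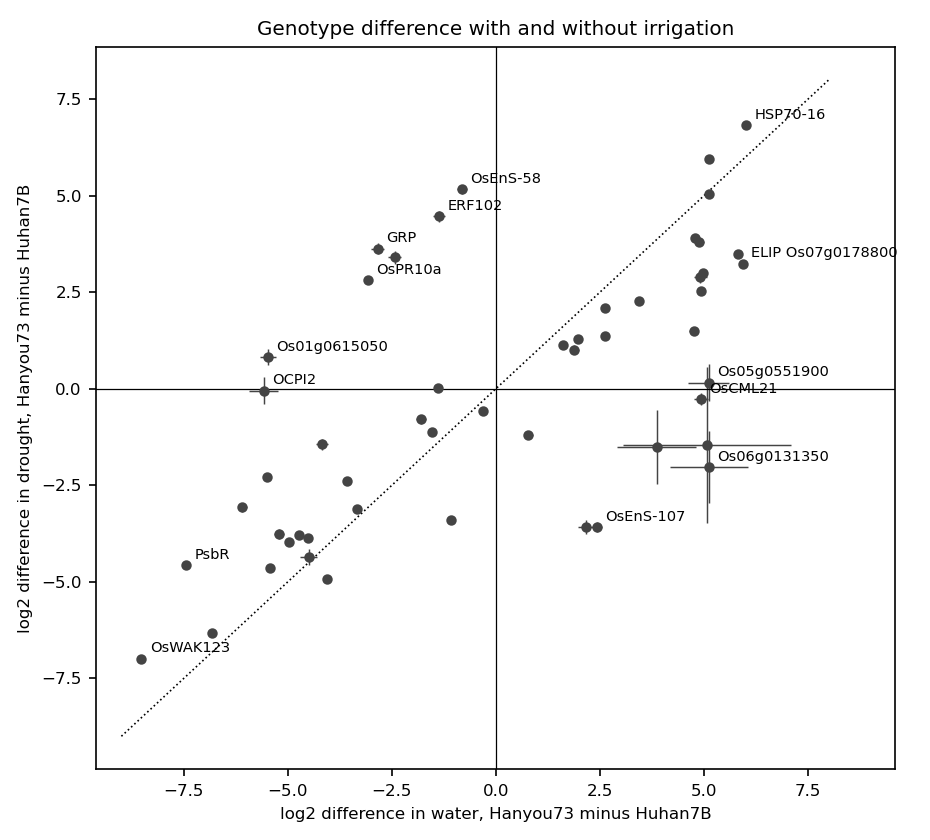
Each point is a gene chosen by the size of its watered difference, its level difference or its change between treatments. The x axis is the log2 difference, Hanyou73 minus Huhan7B, in watered leaves and the y axis the same in droughted leaves, with standard errors of the fit as bars and the dotted line marking equal differences. PsbR lies below 0 in both, OsPR10a and ERF102 are lower in water and higher in drought, and OsEnS-107 is higher in water and lower in drought.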

How the data were processed

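The 18 flag leaf libraries hold poly(A)-selected RNA and were sequenced in pairs, per the labels' protocols (NovaSeq X Plus). The submitters' processing notes name the build IRGSP-1.0 and the tools HISAT2, StringTie, RSEM, fastp and DESeq2; versions and settings are not given in the sources used here. All genotypes were quantified on that build, and the effect of their own sequence differences on the values was not tested. The deposited values are FPKM made by the authors, a unit inferred from the values, since their sums differ between libraries and they follow an effective length. Counts were not used here. Low values come in steps that gave the depth: 81.7% to 84.0% of them were whole read numbers within 0.1 once 310 bases were taken off the length.

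Groups were read from the genotype and treatment labels. Genes with an FPKM of at least 1 in at least 3 libraries were kept, 1017 structural RNA rows were left out, and log2(FPKM + 1) values of all 18 libraries were fitted by group with limma 3.58.1 (R 4.3.3; intensity trend on). Moderated two-sided p-values were Benjamini-Hochberg adjusted over the genes tested and called under 0.05. The fit was tested on simulated data. Levels are mean ± SD over 3 libraries. Fits under other settings are given in the closing section.

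The comparison and the 51 gene lists, made from symbols and product names in the file, were chosen with earlier results of these data known, and lists are described by counts and medians, with no test of their own. Genes named were the 15 per direction with the largest log2 difference among annotated genes with a mean of at least 10, the 8 per direction with the largest level difference, up to 3 per list, 8 per direction among genes on in a single genotype, 6 per direction with the largest change between treatments among genes called in water, and 17 fixed genes, of which 1 is not reported here. Not every gene of the rule is described. Further symbols came from RefSeq's gene table, in which 12188 genes were found. No coordinates are printed.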

Additional observations from a re-analysis of the deposited data

Results flagged for a closer look

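The genotype difference depended on watering for many genes: 4131 genes (18.3%) had a positive and 10000 (44.3%) a negative called difference between the watered and the droughted genotype difference, by limma's interaction contrast. The median gene moved by -0.27 in this contrast, and median-ratio scaling, which takes that shift out, gave 6234 positive and 6078 negative calls. The genes below are the 6 in each direction with the largest called value among genes called in water, and of the 2-fold genes of the watered comparison 1814 of 2635 higher and 1042 of 1371 lower ones had a called value.

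OsEnS-107 (Os07g0529000), the isocitrate lyase of the glyoxylate cycle, stood at 24.80, 25.61 and 24.69 FPKM in watered Hanyou73 against 4.02, 3.61 and 3.85 FPKM in watered Huhan7B, and at 10.00 ± 0.795 against 131 ± 10.8 FPKM in drought, a difference of differences of 6.01 ± 0.17 (adjusted p = 4.96e-13). OsCML21 (Os05g0312600), a calmodulin-like protein, stood at 196 ± 10.8 against 5.45 ± 0.101 FPKM in water and 1.85 ± 0.202 against 2.52 ± 0.924 FPKM in drought (5.20 ± 0.22, adjusted p = 3.59e-11). The splicing factor gene of CFM3 product (Os05g0551900) stood at 42.3 ± 3.83 against 0.267 ± 0.234 FPKM and at 0.393 ± 0.200 against 0.237 ± 0.0896 FPKM (4.94 ± 0.69, adjusted p = 1.75e-05). Os01g0364450, which has no annotation, was on in watered Hanyou73 at 3.48 ± 0.185 FPKM and listed at 0 in watered Huhan7B, with 0.303 ± 0.346 against 14.3 ± 1.61 FPKM in drought (5.75 ± 0.26, adjusted p = 6.56e-11). A gene of arginine decarboxylase product (Os06g0131350) was listed at 0 in watered Huhan7B and in droughted Hanyou73, with 40.43, 25.72 and 37.13 FPKM in watered Hanyou73 and a mean of 4.86 FPKM in droughted Huhan7B (7.16 ± 1.31, adjusted p = 2.23e-04). The plastid gene atpH stood at 17.71, 18.11 and 7.60 FPKM in watered Hanyou73 and 0 in watered Huhan7B, and at means of 7.04 and 7.09 FPKM in drought, with SDs of 12.2 and 0.588 (5.39 ± 1.36, adjusted p = 0.00292).

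In the other direction, OsPR10a (Os12g0555500), a pathogenesis-related PR10 protein, stood at 46.46, 47.48 and 42.96 FPKM in watered Hanyou73 against 381, 401 and 399.9 FPKM in watered Huhan7B, and at 232 ± 5.91 against 32.1 ± 4.83 FPKM in drought (-5.91 ± 0.12, adjusted p = 1.04e-14). The glycine-rich cell wall protein gene GRP (Os10g0450900) went from 6.37 ± 0.998 against 51.7 ± 5.97 FPKM to 69.2 ± 1.37 against 4.74 ± 1.06 FPKM (-6.47 ± 0.22, adjusted p = 2.28e-12). The chymotrypsin inhibitor gene Os01g0615050 went to 105 ± 5.70 against 59.3 ± 4.61 FPKM (-6.30 ± 0.28, adjusted p = 5.70e-11). ERF102 (Os09g0457900), an ethylene-responsive factor, was low in water at 0.310 ± 0.171 against 2.38 ± 0.416 FPKM and stood at 116 ± 1.91 against 4.27 ± 0.353 FPKM in drought (-5.84 ± 0.20, adjusted p = 3.16e-12). OsEnS-58 (Os03g0826900), with no product name, went from 0 against 0.780 ± 0.358 FPKM to 157 ± 3.13 against 3.42 ± 0.286 FPKM (-5.97 ± 0.16, adjusted p = 2.87e-13). A gene annotated as ANTAGONIST OF LIKE HETEROCHROMATIN PROTEIN 1 (Os01g0186900) went from 8.10 ± 1.85 against 47.5 ± 5.31 FPKM to 601 ± 36.4 against 56.2 ± 5.71 FPKM (-5.83 ± 0.23, adjusted p = 1.07e-11). The values of Os01g0364450, Os06g0131350, atpH and OsEnS-58 rest on a group listed at 0, so they depend on the pseudocount and are neither folds nor bounds. Groups of 3 libraries are too small for a test of single outlying libraries, and no sample was singled out.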

How the results depend on the processing

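The watered counts moved by less than 1.5 times under every alternative run: a pseudocount of 0.1, no filter, an FPKM of at least 5 in 3 libraries, median-ratio scaling, equal sums (TPM), a fit over the 6 watered libraries, no intensity trend, structural RNA rows kept, and leaving out each library. The balance of directions followed the scaling within that limit. Of the watered calls 57.1% were higher in the main fit, 52.5% with median-ratio scaling (7758 higher, 7020 lower) and 65.4% with equal sums (9683 and 5114). Without 1 library the calls were 7923 to 8036 higher and 5880 to 6023 lower, and at 2-fold 2593 to 2645 and 1340 to 1387. The largest shift at 2-fold came with a pseudocount of 0.1, with 3697 genes higher and 1861 lower. Replicate numbers did not pair the libraries: deviations of libraries with the same number correlated at 0, 0.018 and 0.091 in water, and the correlations of the other numbers ranged from -0.072 to 0.052. With a replicate block 8353 genes were called higher and 6289 lower, and 14476 of these 14642 calls were also made without it. In drought, median-ratio scaling gave 7657 genes higher and 6880 lower, and at 2-fold 2289 and 1674; the difference of differences had 6234 positive and 6078 negative calls with it. These counts shift because that scaling removes the shift of the median gene. Without 1 library drought had 12109 to 12317 higher and 3392 to 3469 lower, at 2-fold 3571 to 3621 and 1083 to 1116, and the difference of differences 3887 to 4073 positive and 9506 to 9840 negative. Genes on in a single genotype numbered 105 (hybrid) and 20 (Huhan7B) with on set at an FPKM of 5 or more, and 277 to 286 and 83 to 92 when 1 library was left out, since fewer libraries then had to pass. Of 210 genes named by the rule and tested, 5 changed their call under some alternative and none changed direction with a call; 1 gene annotated as ubiquitin ligase XB3 (Os03g0275350), at 228, 117 and 31.07 FPKM against 22.09, 0 and 0 FPKM, lost its call with a pseudocount of 0.1, with no filter and without any 1 of 4 of the 6 libraries. Of 918 list counts under alternatives, 23 moved by over 1.5 times, 10 of them from a count above 10. Low genes limit the comparison: at this depth a gene under an FPKM of 0.1 rests on few fragments.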

Other observations

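Some of the largest level differences lay in genes without a name. Os01g0642200, Os12g0515800 and Os12g0516200, which carry no symbol or product in the file, stood at 6398 ± 441, 6138 ± 765 and 3818 ± 357 FPKM in the hybrid against 1623 ± 28.2, 1664 ± 35.8 and 1234 ± 21.0 FPKM in Huhan7B (log2 differences 1.98 ± 0.072, 1.88 ± 0.11 and 1.62 ± 0.078). In droughted leaves they stood at 2752 ± 33.0, 657 ± 27.9 and 1100.1 ± 14.5 FPKM against 1129.9 ± 46.3, 325 ± 21.0 and 507 ± 27.6 FPKM.

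Other genes that the comparison above does not describe also differed. OsDR8 (Os07g0529600), a thiamine thiazole synthase, stood at 7756, 7704 and 7597 FPKM in watered Hanyou73 against 4695, 4321 and 4427 FPKM in watered Huhan7B (log2 difference 0.78 ± 0.10, adjusted p = 6.28e-06). OsCBSX3 (Os02g0818000) stood at 683, 696 and 689 FPKM against 8187, 8273 and 8124 FPKM (log2 difference -3.57 ± 0.029, adjusted p = 1.97e-20). A scopoletin glucosyltransferase gene (Os01g0597800) stood at 30.90, 30.18 and 34.53 FPKM against 0.35, 0.22 and 0.11 FPKM (log2 difference 4.75 ± 0.10, adjusted p = 1.82e-15). An aspartic proteinase gene (Os12g0583300) stood at 0, 0.05 and 0 FPKM against 19.01, 16.30 and 17.17 FPKM (adjusted p = 1.38e-12). The libraries of the 2 genotypes did not overlap for any of these 4 genes, which were picked for a difference between these same libraries.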
